A study of Mus musculus with 4 samples.

Results

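Cells that copy their DNA and then divide switch on 2 groups of genes in turn, and the 46 genes described here were taken from both. The replication group holds 18 genes: Mcm2 to Mcm7, Pcna, Tyms, Rrm1, Rrm2, Gins2, Cdc6, Slbp, Ung, Dut, Uhrf1, Cdca7 and Ccne2. The mitosis group holds 26: Mki67, Top2a, Cdk1, Ccna2, Ccnb1, Ccnb2, Birc5, Ube2c, Cenpf, Cenpe, Cenpa, Hmmr, Nusap1, Tpx2, Kif11, Kif2c, Kif23, Bub1, Aurkb, Cdc20, Cdca3, Cdca8, Prc1, Ckap2, Ckap2l and Tacc3. Stmn1 and Hmgb2, which proliferating cells express broadly, were kept apart from both. The genes were chosen by name, and all 46 were found among the 27998 genes of the deposited table.

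RNA was measured in single cells of mouse liver by 10x Genomics droplet sequencing. The cells came from C57BL/6J mice and had been sorted as CD45+ CD146-, which enriches blood-derived and resident immune cells over the endothelium. Control 1 and control 2 are libraries of animals fed a control diet. NASH 1 and NASH 2 are libraries of animals fed the Amylin liver NASH model diet, which brings on fatty liver with inflammation. Every liver was perfused and digested with flavopiridol, an inhibitor of cyclin-dependent kinases that blocks transcription, present to limit changes during digestion. The labels do not state the age, the time on the diet or whether each library is a separate mouse, so p-values measure the spread between these libraries, which may be technical.

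As background, DNA replication starts where the Mcm2 to Mcm7 helicase has been loaded by Cdc6, and Gins2 is a subunit of the complex that sets the helicase running. Pcna is the sliding clamp of the polymerases. Tyms, Dut, Rrm1 and Rrm2 make or guard the deoxynucleotide pool, Ung removes uracil from DNA, Uhrf1 copies DNA methylation, Slbp stabilises histone mRNA and Ccne2 is the cyclin of the G1 to S transition. Transcription of this group is driven by E2F factors. The mitosis group holds the kinases Cdk1, Aurkb and Bub1, the cyclins Ccna2, Ccnb1 and Ccnb2, the ubiquitin ligase partners Ube2c and Cdc20, spindle motors such as Kif11 and Kif23, and centromere proteins such as Cenpa. The mitosis genes are known to be driven by the DREAM and MMB-FOXM1 complexes, which bind promoters at the CHR element with CCAAT boxes nearby. Resident macrophages of the liver, the Kupffer cells, renew themselves by dividing in place, and monocytes that enter the liver can also divide as they become macrophages.

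Promoter sequence from RefSeq (build GRCm38.p6, from 250 bases before to 50 bases after the start) was matched to 39 of the 46 genes, 15 of replication, 23 of mitosis and Hmgb2. The stretches below are the 150 bases before the start, shown because the 2 groups carry different letters there. The 7 genes were picked with their matches known, as examples of each kind, and Tyms as one with no match. Capitals mark CCAAT boxes, written ATTGG where they lie on the other strand. They also mark the CHR element, TTTGAA, which on the other strand reads TTCAAA. The E2F core is TTGGCGC, or the variant TTCCCGC, and reads GCGCCAA or, for the variant, GCGGGAA on the other strand.
Cdc20 (mitosis, chr4:118437344-118437493, minus strand): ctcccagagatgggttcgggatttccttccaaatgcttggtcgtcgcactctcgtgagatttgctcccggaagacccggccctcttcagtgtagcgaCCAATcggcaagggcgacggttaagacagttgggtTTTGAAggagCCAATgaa
Top2a (mitosis, chr11:99024190-99024339, minus strand): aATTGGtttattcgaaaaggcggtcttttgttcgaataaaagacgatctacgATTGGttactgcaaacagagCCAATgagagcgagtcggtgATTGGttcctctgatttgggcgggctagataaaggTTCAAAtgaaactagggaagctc
Hmmr (mitosis, chr11:40733438-40733587, minus strand): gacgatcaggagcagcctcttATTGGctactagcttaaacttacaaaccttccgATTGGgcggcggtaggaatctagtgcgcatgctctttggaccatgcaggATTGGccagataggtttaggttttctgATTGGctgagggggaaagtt
Mcm6 (replication, chr1:128359706-128359855, minus strand): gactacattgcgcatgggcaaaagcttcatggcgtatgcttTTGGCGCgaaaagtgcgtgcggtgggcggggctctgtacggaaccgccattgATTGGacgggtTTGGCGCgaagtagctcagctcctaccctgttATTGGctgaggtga
Mcm5 (replication, chr8:75109359-75109508, plus strand): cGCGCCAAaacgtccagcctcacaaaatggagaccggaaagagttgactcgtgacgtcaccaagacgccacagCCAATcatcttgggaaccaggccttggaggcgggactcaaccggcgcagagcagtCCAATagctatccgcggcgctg
Cdca7 (replication, chr2:72476069-72476218, plus strand): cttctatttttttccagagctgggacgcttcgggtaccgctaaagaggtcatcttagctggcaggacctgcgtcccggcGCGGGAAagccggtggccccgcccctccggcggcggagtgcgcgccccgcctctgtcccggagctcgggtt
Tyms (replication, chr5:30073626-30073775, minus strand): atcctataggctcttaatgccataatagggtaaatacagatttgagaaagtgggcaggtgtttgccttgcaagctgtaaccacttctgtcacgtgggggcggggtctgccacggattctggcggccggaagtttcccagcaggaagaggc

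Over the whole 300-base windows and both strands, the CHR letters stood in 17 of 23 mitosis promoters (73.9%), in 1 of 15 replication promoters, and in 17.9% of the 32851 promoters of the table. The E2F core stood in 8 of 15 replication promoters (53.3%), in 3 of 23 mitosis promoters and in 6.81% of all promoters. CCAAT was found in 19 of 23 mitosis promoters (82.6%) and in 10 of 15 replication promoters (66.7%), against 37.4% of all. At least 2 CCAAT boxes stood in 14 mitosis promoters, 6 replication promoters and 11.7% of all. The longer E2F motif, TTTGGCGC and its variant TTTCCCGC, both of which contain the core, were in 5 replication promoters, in no mitosis promoter and in 1.56% of all. For a gene with 2 starts in the table, the start at the lower coordinate was counted. The other start of Mcm7 holds the longer E2F motif, which its counted start lacks, and 3 CCAAT boxes against 1. The counted start of Uhrf1 holds the E2F core, which its other start lacks. A match describes the letters in the window and nothing about binding in these cells.

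After filters, 6158 of the 6927 barcodes were kept, 1307 (control 1), 1420 (control 2), 1572 (NASH 1) and 1859 (NASH 2). The median UMIs (counted RNA molecules) per kept cell were 3375 and 3034 in control and 7616 and 7393 in NASH, and the mitochondrial share was 6.01% and 5.57% against 3.39% and 3.18%. Depth thus differs by diet in every comparison below. Between 2 and 8 barcodes were shared per pair of libraries. Cells were clustered without any of 190 cell cycle genes, so that dividing cells stayed with their own type. Each cell was then thinned at random to 1000 UMIs, which left out 30 shallower cells of 6158 and kept 6128. A cell was called in mitosis when it held UMIs of at least 3 of the 26 mitosis genes, and in replication when it held UMIs of at least 3 of the 18 replication genes. A called cell passed either. Shares of cells carry exact Clopper-Pearson 95% intervals. Beside a share of 0 the limit given is instead 3 cells of the number tested. Both cover counting error only.

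By this rule 310 of 6128 cells were called. Of these, 219 passed on mitosis genes only, 57 on replication genes only and 34 on both. Just below the threshold, 195 cells held 2 genes of a group, and just above it 87 held exactly 3. Most cells held nothing: no mitosis gene was seen in 5313 cells and no replication gene in 4861. The call is therefore a count of cells in which the transcripts were caught, not of all cells in cycle, and most of what it caught was the mitosis program.

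Each gene was compared between called cells and the rest with that gene left out of its own call. Birc5, the survivin subunit of the chromosomal passenger complex, had a UMI in 37.2% of called cells and 1.18% of the others. Ube2c, the ubiquitin-conjugating enzyme of the anaphase-promoting complex, had one in 39.7% against 0.98%. Top2a, the topoisomerase that untangles sister chromatids, had one in 34.6% against 0.67%. Among replication genes the ribonucleotide reductase subunit Rrm2 was seen in 14.6% of called cells against 0.38%, and its partner Rrm1 in 12.5% against 1.24%. Pcna (11.2% against 4.80%) and Slbp (13.3% against 4.22%) were more often seen outside the called cells than any other replication gene. Ung was in 0.33% of called cells and 0.48% of the rest. Hmgb2, a chromatin protein that binds bent DNA, and Stmn1, which destabilises microtubules, entered neither call. Hmgb2 was found in 78.1% of called cells against 13.01%, and Stmn1 in 56.5% against 3.09%. Cells called on replication genes alone held Stmn1 in 49.1% and Hmgb2 in 54.4%, against 58.1% and 83.4% of the mitosis-called cells. They held Ube2c in 6.67% against 48.1% and Birc5 in 8.47% against 44.6%, which the rule itself limits.

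**Figure D1:**
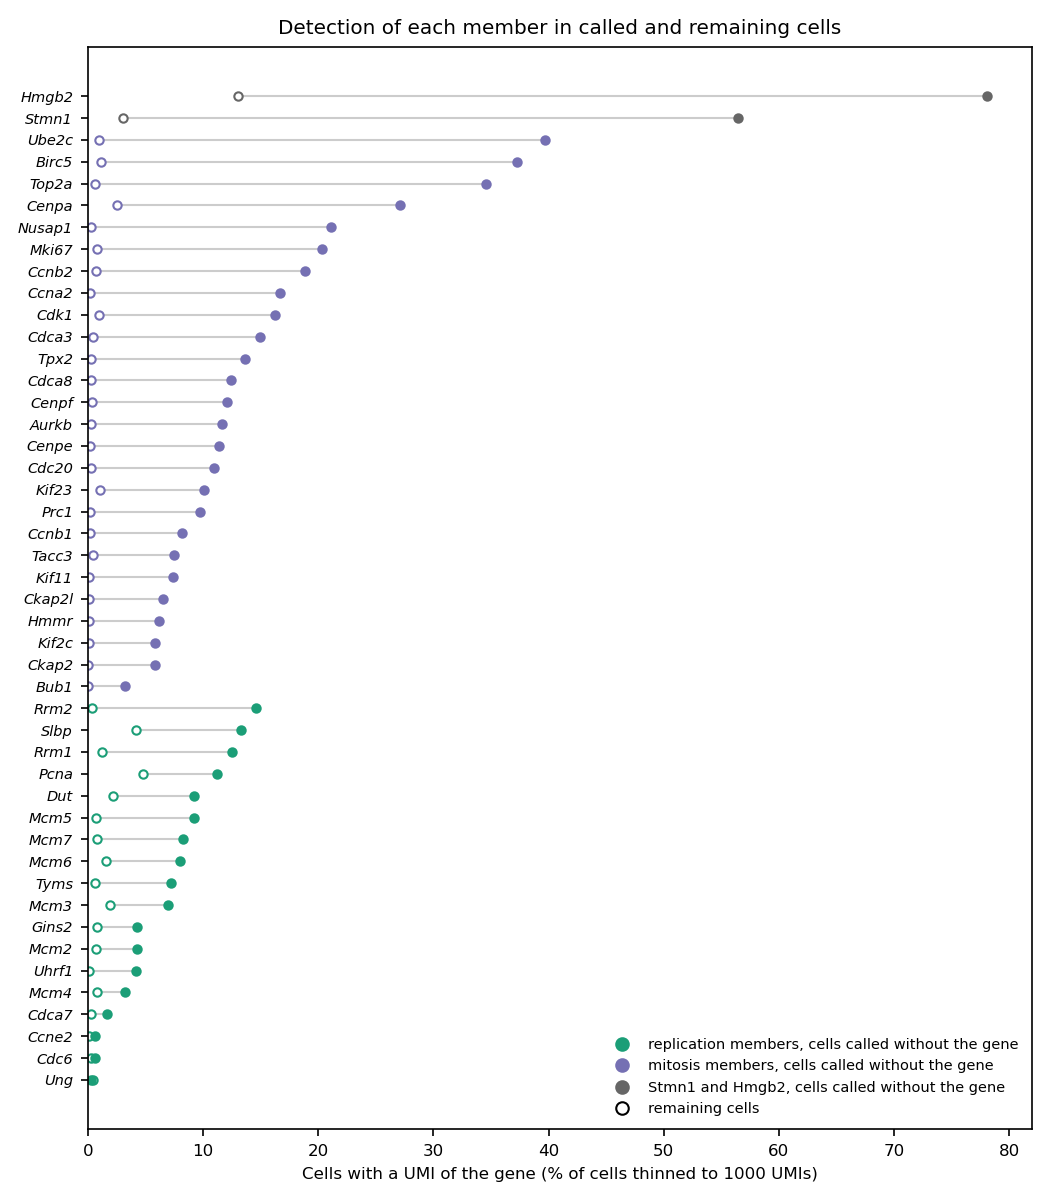
Share of cells (percent, thinned to 1000 UMIs) with a UMI of each of the 46 genes, in called cells with that gene left out of the call and in the remaining cells. The mitosis genes Ube2c, Birc5 and Top2a lie at 39.7%, 37.2% and 34.6% of called cells, and no replication gene is above 14.6%.

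Called cells were spread unevenly over the cell classes. Dendritic cell-like cells had 55 called of 418 (13.2%, interval 10.1 to 16.8) and macrophage-like cells 194 of 3842 (5.05%, 4.38 to 5.79). Within the dendritic class the cluster led by Xcr1 and Naaa, genes of cDC1 cells that present antigen to CD8 T cells, had 39 of 148 called (26.4%, 19.5 to 34.2). The cluster with Cd209a, a gene of cDC2 cells, had 15 of 172 (8.72%), and the Fscn1 and Ccr7 cluster of migratory cells had 1 of 98 (1.02%). These clusters made up different parts of the class by diet: the Xcr1 cluster held 6 of 10 and 20 of 32 control dendritic cells and 59 of 201 and 63 of 175 in NASH. Within the Xcr1 cluster the called share was 16.7% and 20.0% in control and 28.8% and 27.0% in NASH, the opposite order by diet to the whole class. In the Cd209a cluster it was 25.0% and 25.0% in control, from 4 and 8 cells, and 8.79% and 5.80% in NASH. An unnamed cluster of 38 cells led by Mpo, Ctsg and Prtn3, granule genes of early myeloid cells, had 11 called (28.9%, 15.4 to 45.9). The shares by library in that cluster were 25.0%, 27.3%, 28.6% and 33.3% from 8, 11, 7 and 12 cells. Plasma cell-like cells had 7 of 56 (12.5%), T cell-like 9 of 143 (6.29%), B cell-like 9 of 188 (4.79%) and NK cell or ILC1-like 3 of 97 (3.09%). At the low end stood monocyte-like cells with 6 of 306 (1.96%), neutrophils, which do not divide once mature, with 1 of 59 (1.69%), endothelial-like cells with 2 of 273 (0.73%) and plasmacytoid dendritic cell-like cells with 2 of 350 (0.57%). Stellate or fibroblast-like cells had 0 of 28, which allows a share of up to 10.7%. The intervals of dendritic and macrophage-like cells are separate, and those of macrophage, T, B and NK cell or ILC1-like cells overlap. These intervals pool the cells of the 4 libraries, and most dendritic cells came from NASH. The dendritic share depends on how cells were clustered. With cell cycle genes kept in clustering, the class named dendritic cell-like had 4.36% of 390 cells called, against 4.75% to 7.12% in the macrophage-like libraries, and the order of the 2 classes no longer holds. At 500 UMIs the dendritic share was 5.98%, against 2.24% to 2.86% in the macrophage-like libraries. Of 79 putative doublets removed beforehand, 1 was called (1.27%).

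**Figure D2:**
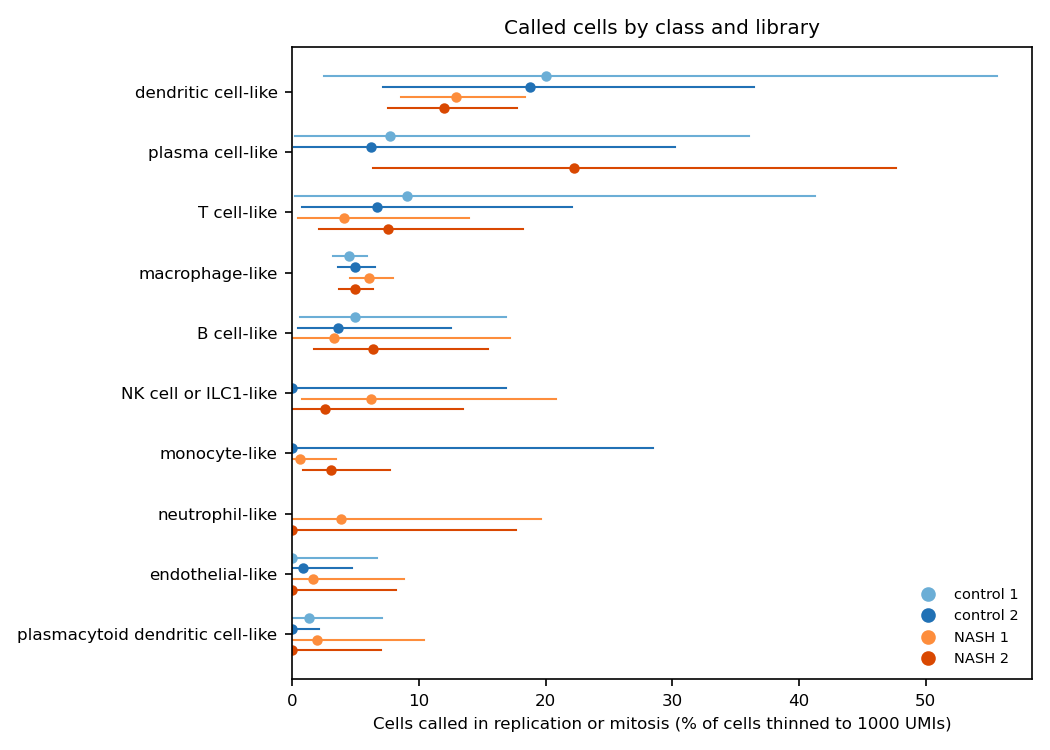
Share of cells called (percent of cells thinned to 1000 UMIs) for each cell class and library, with exact 95% intervals, drawn where a library has at least 10 cells of the class. Dendritic cell-like cells lie at 20.0% and 18.8% in control and 12.9% and 12.0% in NASH, plasma cell-like cells of NASH 2 at 22.2% (4 of 18), and plasmacytoid dendritic cell-like cells lie near 0.

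The members were then tested between the 2 classes over the 4 libraries, with UMIs summed per library and class and the quasi-likelihood test of edgeR, adjusted by Benjamini-Hochberg over all genes. This comparison was added after the shares had been seen. Those shares were counted from the same members in the same cells, so the p-values here give no independent support for them. Of 45 members tested, 29 were higher in dendritic cell-like than in macrophage-like sums and none was lower, where 17.7% of all 10002 genes were higher. Without an adjustment, 33 members had p under 0.05 and were higher, and DESeq2 called 19. Of the 29, 12 were replication genes of 17 tested and 16 were mitosis genes of 26. Dut, which clears dUTP, stood at 97.8 and 83.6 CPM, its UMIs scaled to a common library total, in the control dendritic sums and 67.2 and 73.2 in NASH, against 12.7, 14.3, 23.3 and 20.6 in macrophages. Its log2 fold change was 2.09 ± 0.24 (SE, adjusted p = 8.53e-09 by edgeR), and no library overlapped. Mcm7 was higher by 1.65 ± 0.25 (edgeR adjusted p = 1.47e-06), Aurkb, the kinase of the chromosomal passenger complex, by 1.43 ± 0.27 (adjusted p = 4.04e-05), Hmgb2 by 1.53 ± 0.22 and Rrm2 by 1.36 ± 0.27. Pcna differed by -0.11 ± 0.27 and did not pass. Stmn1 differed by 2.15 ± 0.82 without passing (edgeR adjusted p = 0.14), at 247 to 471 CPM in dendritic sums and 38.4 to 188 in macrophage sums. Leaving out NASH 2, which held 175 of the 418 dendritic cells, left 13 calls. Leaving out NASH 1, which held more of them, left 24. The dendritic sums of control libraries rest on 10 and 32 cells. The 18 dendritic markers summed to 2655 to 3094 CPM in dendritic sums against 407 to 439 in macrophage sums, and the 16 macrophage markers to 1111 to 2370 against 28918 to 37372.

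Macrophage-like cells were the largest class. The share called was 45 of 1010 (4.46%, 3.27 to 5.92) in control 1, 45 of 913 (4.93%, 3.62 to 6.54) in control 2, 49 of 804 (6.09%, 4.54 to 7.98) in NASH 1 and 55 of 1115 (4.93%, 3.74 to 6.37) in NASH 2. The intervals of all 4 libraries overlap. The means were 4.69% ± 0.33 in control and 5.51% ± 0.82 in NASH (SD, n = 2), a difference of 0.82 points, no larger than the spread between the NASH libraries. Without thinning the shares read 8.11% and 8.24% in control and 26.7% and 20.6% in NASH, the deeper libraries. The difference was 0.08 points after thinning to 500 UMIs, 1.89 at 2000, and -0.13 when 4 genes were asked for. Cells called on replication genes alone numbered 1 and 5 in control and 10 and 10 in NASH.

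**Figure D3:**
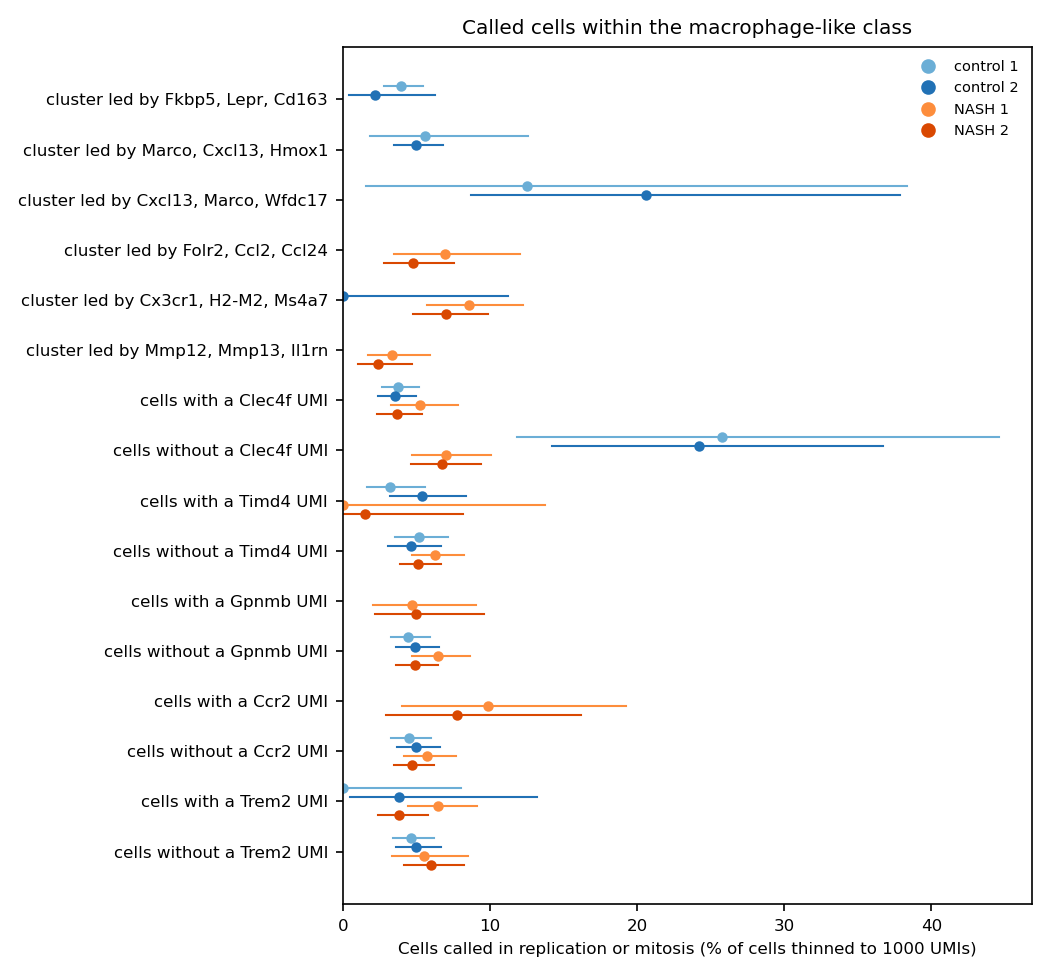
Share of macrophage-like cells called (percent of cells thinned to 1000 UMIs) in each library for the clusters of the class and the cells with or without a UMI of 5 marker genes, with exact 95% intervals and only where a library has at least 15 cells. Control cells without Clec4f lie at 25.8% and 24.2%, above 3.78% and 3.53% of those with it, and the NASH values are 7.03% and 6.74% against 5.24% and 3.66%.

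Different clusters made up the class under each diet. In control libraries the cluster led by Fkbp5, Lepr and Cd163 had 3.96% and 2.19% called, and the one led by Marco, Cxcl13 and Hmox1 had 5.62% and 4.96%. A smaller control cluster, led by Cxcl13, Marco and Wfdc17 and with a median of 1470 UMIs a cell, had 2 of 16 (12.5%) and 7 of 34 (20.6%). In NASH libraries the cluster led by Cx3cr1, H2-M2 and Ms4a7 had 27 of 314 (8.60%, 5.74 to 12.3) and 30 of 426 (7.04%, 4.80 to 9.90). The cluster led by Folr2, Ccl2 and Ccl24 had 6.92% and 4.79%. The cluster led by Mmp12 and Mmp13 had 11 of 328 (3.35%, 1.69 to 5.92) and 8 of 330 (2.42%, 1.05 to 4.72). In each NASH library the Cx3cr1 cluster had a higher share than the Mmp12 cluster, with intervals that overlap in NASH 1 and are separate in NASH 2.

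The macrophage-like cells were split further by 5 marker genes, chosen after the data had been seen. The split was by a UMI of the gene in the thinned cell, and a cell with no UMI may still express the gene. Clec4f is a lectin that marks Kupffer cells in the mouse. Control cells with no Clec4f UMI were called in 8 of 31 (25.8%, 11.9 to 44.6) and 15 of 62 (24.2%, 14.2 to 36.7), and those with one in 37 of 979 (3.78%, 2.68 to 5.17) and 30 of 851 (3.53%, 2.39 to 4.99). In NASH, where far more cells had no Clec4f UMI, the shares were 27 of 384 (7.03%) and 31 of 460 (6.74%) without, against 5.24% and 3.66% with. The intervals are separate in both control libraries and overlap in both NASH libraries. In the control cells without Clec4f the 18 dendritic markers summed to 677 and 500 CPM of thinned UMIs against 411 and 461 in those with it, and the other 15 macrophage markers to 20935 and 20677 against 28229 and 34773. The 12 monocyte markers stood at 419 and 548 against 614 and 483. The part of these markers in the result was not tested. Of the called control cells with no Clec4f UMI, 6 of 8 lay in the Fkbp5 cluster in control 1. In control 2, 11 of 15 lay in the Marco cluster led by Marco, Cxcl13 and Hmox1. Over the whole class Clec4f stood at 2475 and 1976 CPM in called control cells and 4630 and 4172 in uncalled ones. The part of this lower level in the split was not tested. Cells with Timd4, a receptor of long-lived Kupffer cells, were called in 3.23% and 5.41% of control and in 0 of 25 (which allows up to 12.0%) and 1 of 66 in NASH, and cells without it in 5.16%, 4.66%, 6.29% and 5.15%. Cells with Gpnmb, a gene of lipid-associated macrophages, were called in 4.71% and 5.00% of NASH cells, and those without in 6.47% and 4.92%. Cells with Trem2 were called in 0 of 44 (up to 6.82%) and 2 of 52 in control and in 6.51% and 3.85% in NASH, against 4.66%, 4.99%, 5.54% and 5.98% without. Cells with Ccr2, the receptor of incoming monocytes, were called in 0 of 11 and 0 of 11 in control (up to 27.3% each) and in 9.86% and 7.79% in NASH, where those without stood at 5.73% and 4.72%.

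The level of the members themselves was compared between diets over summed macrophage-like UMIs. Of 45 tested (Ccne2 was too low), 27 were higher in NASH and 1 lower by the same edgeR test, where 24.1% of all 10566 genes were higher and 22.0% lower. DESeq2 called 18 higher and 1 lower, where it called 1816 of all genes higher and 1470 lower. The scaling bears on these counts. TMM factors were 1.13 and 1.14 in control and 0.88 and 0.89 in NASH, and on plain library totals the median gene fell by 0.36 on the log2 scale. On totals 16 members were higher and 2 lower, against 13.6% and 38.2% of all genes. The replication genes had the larger median under either scaling. Of 17 replication genes, 12 were higher and 0 lower (8 and 0 on totals) with a median log2 fold change of 1.05 (0.70). Of 26 mitosis genes, 13 were higher and 1 lower (7 and 2) with a median of 0.53 (0.17). The difference between the 2 groups was not tested. In CPM, both NASH libraries lay above both control libraries for 11 of 17 replication genes and 10 of 26 mitosis genes, and below both for 1 and 4. Of the 9882 genes at or above the mean CPM of the lowest tested member, 23.6% lay above and 55.1% below. CPM are plain shares of a library's UMIs, and fold changes below are on the TMM scale.

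Stmn1 had the clearest change. It stood at 38.4 and 49.2 CPM in control and 188 and 144 in NASH, with no overlap, a log2 fold change of 2.28 ± 0.18 (SE, edgeR adjusted p = 1.68e-05). Tyms, which makes dTMP for DNA, went from 4.15 and 4.44 to 20.0 and 16.3 CPM, a change of 2.43 ± 0.26 (edgeR adjusted p = 5.83e-05). Gins2 went from 5.53 and 4.78 to 15.3 and 13.8 CPM (1.83 ± 0.25). Mcm5 went from 7.47 and 8.54 to 18.1 and 16.8 CPM (1.48 ± 0.22). Both NASH libraries were at least 2 times the higher control library for Stmn1, Tyms and Gins2. Among the other replication genes past the threshold were Uhrf1 (1.85), Ung (1.76), Mcm2 (1.34), Mcm6 (1.14) and Dut (1.05). Mcm3 (0.22), Mcm4 (0.19), Cdc6 (0.26), Rrm1 (0.09) and Rrm2 (0.08) did not pass.

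In the mitosis group Cdca8, borealin of the chromosomal passenger complex, led with 9.96 and 7.17 CPM in control and 25.3 and 20.9 in NASH (1.76 ± 0.23, edgeR adjusted p = 1.58e-04). Its partner Birc5 went from 38.2 and 34.2 to 70.6 and 56.3 CPM (1.16 ± 0.17). The cyclin Ccnb2 rose by 1.39 ± 0.23, Cdc20, the activator of the anaphase-promoting complex, by 1.27 ± 0.23 and Cdk1 by 0.90 ± 0.18. Kif23, a kinesin of the central spindle in cytokinesis, was the exception: it stood at 31.8 and 34.8 CPM in control and 11.6 and 12.9 in NASH, with a log2 change of -1.08 ± 0.17 (edgeR adjusted p = 5.39e-04). It fell by 0.89 to 1.44 over the 18 settings run, scalings and left-out libraries included. Mki67, the usual marker of proliferation, was at 26.8, 34.8, 27.0 and 26.0 CPM in control 1, control 2, NASH 1 and NASH 2 and did not pass (0.14 ± 0.17). Top2a was at 52.8, 60.1, 39.9 and 30.9 CPM (-0.32 ± 0.17) and passed only on library totals, where it fell by 0.67. Hmgb2, at 257, 236, 248 and 244 CPM, passed with TMM (0.35 ± 0.13) and stood at -0.01 on totals. Of the 27 higher genes, Ccnb1, Cenpa, Hmgb2, Slbp and Ube2c overlap between diets in CPM, and their calls rest on the scaling. So do calls of others among the 27, since on library totals only 16 members were higher.

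**Figure D4:**
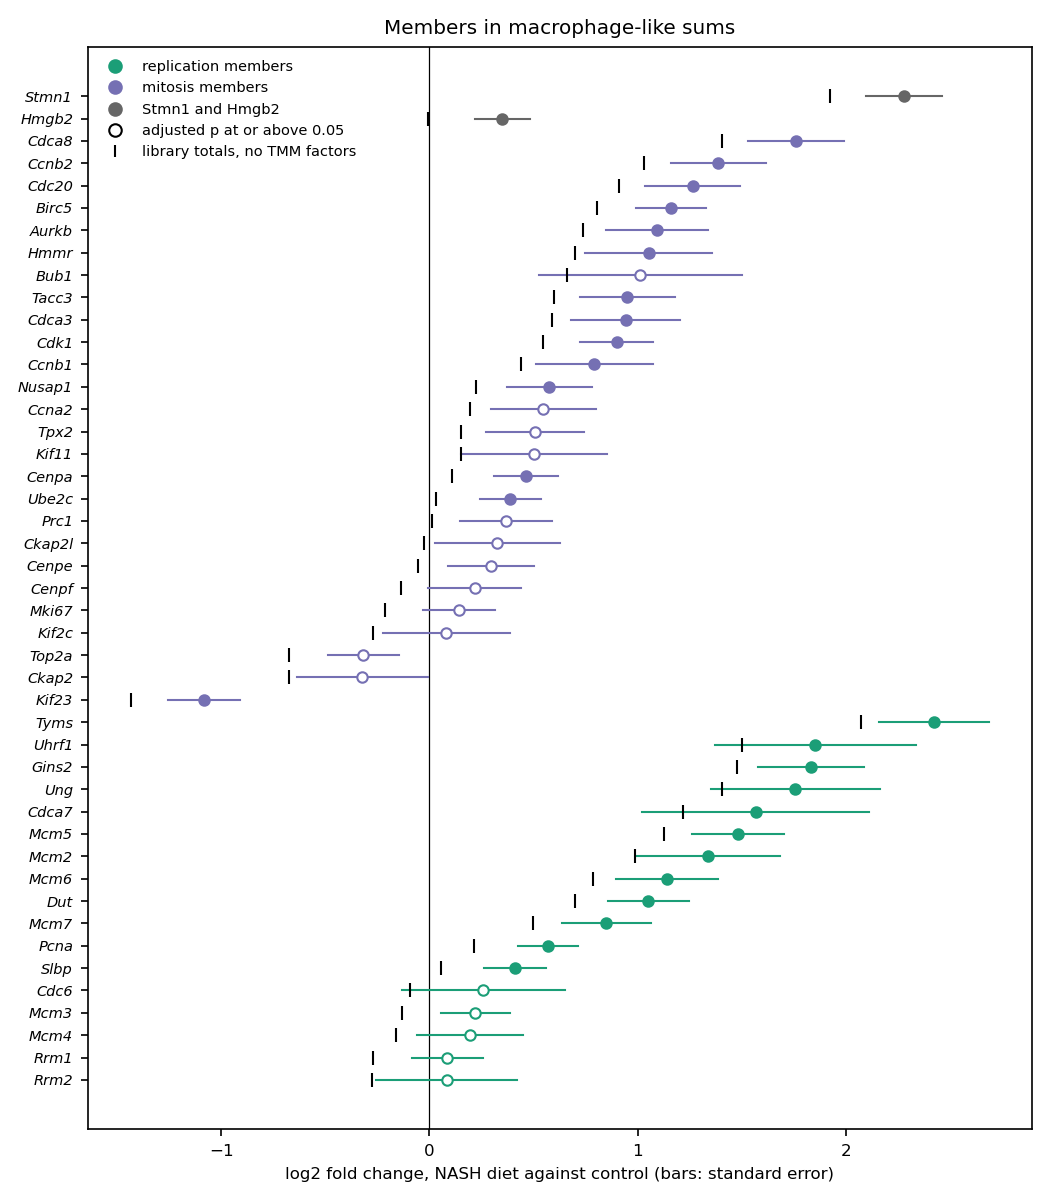
Log2 fold change of each tested member in macrophage-like sums, NASH against control, with its SE, from edgeR with TMM factors (n = 2 libraries a diet). Tyms and Stmn1 lie farthest right at 2.43 and 2.28, Kif23 farthest left at -1.08, and Mki67 and Top2a lie at 0.14 and -0.32.

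The UMIs of macrophage-like cells were then divided between called and uncalled cells, as a description, since the call used these genes. Called cells held 71.4%, 69.7%, 69.3% and 71.0% of all mitosis group UMIs in control 1, control 2, NASH 1 and NASH 2, but only 29.5%, 33.2%, 22.4% and 30.3% of replication group UMIs. In uncalled cells 13 of 18 replication genes were higher in both NASH libraries than in both control libraries and none was lower. Of 26 mitosis genes, 16 were higher and 3 lower. Of the same 9882 genes as above, 23.2% were higher and 54.8% lower. In called cells 4 replication genes were higher and 6 lower, and 3 mitosis genes higher and 14 lower, where 19.8% and 36.7% of the 9882 were. Stmn1, which the call did not use, stood at 8.51 and 13.8 CPM in uncalled control cells and 90.5 and 68.0 in uncalled NASH cells, and at 565 and 631 against 1242 and 1013 in called cells. Tyms stood at 2.05 and 1.09 against 14.1 and 10.4 CPM in uncalled cells. Top2a in called cells stood at 873 and 877 CPM in control and 332 and 301 in NASH. Kif23 was lower in NASH in both kinds of cell, at 19.1 and 25.8 against 4.02 and 4.92 CPM in uncalled cells and at 252 and 186 against 93.2 and 105 in called cells. An uncalled cell is one in which fewer than 3 genes were caught at 1000 UMIs, so it can still be in cycle.

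Other genes of the cell cycle were read from lists of the same fit. In that fit 24.1% of all 10566 genes were higher and 22.0% lower with TMM, and 13.6% and 38.2% on totals. Of 40 other replication genes tested, 14 were higher and 2 lower with TMM and 10 and 5 on totals. Tk1, the salvage kinase for thymidine, rose by 1.58 ± 0.15 and Prim1, a primase subunit, by 2.93 ± 0.46. Of 71 other mitosis genes, 29 were higher and 2 lower (13 and 5 on totals), with Hn1 at 1.30 and Cks1b, a Cdk1 partner, at 1.30, while Lbr of the nuclear envelope fell by 1.19. Of 17 CDK inhibitors and arrest genes, 3 were higher and 5 lower (2 and 8): Btg1, an antiproliferative gene, fell by 1.42 and Cdkn1b, which encodes p27, by 1.33, while Cdkn2c and Cdkn2d, the p18 and p19 inhibitors of Cdk4, rose by 1.00 and 1.17. Of 25 G1 and E2F regulators, 6 were higher and 3 lower (4 and 8), with Ccnd2 at 1.60 and Cdk4 at 0.78 and Cdk2 at -0.96. Of 14 growth signal genes of macrophages, 3 were higher and 6 lower (2 and 7). Among these Maf and Csf1r, the CSF1 receptor, fell by 1.33 and 0.77, and Csf2ra, a chain of the GM-CSF receptor, rose by 0.92. Of 26 other transcripts tied to the cycle, 13 were higher and 2 lower (9 and 6), with Ranbp1 at 1.56 and the histone variant H2afx at 1.83. Markers of other cells moved with diet too: the 11 hepatocyte markers summed to 1323 and 1241 CPM in control against 628 and 472 in NASH macrophage sums, and the 16 endothelial markers to 788 and 861 against 286 and 269. Their part in these differences was not tested.

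The mix of cells in the libraries differed by diet, with 10, 32, 201 and 175 dendritic cell-like and 5, 11, 160 and 130 monocyte-like cells in control 1, control 2, NASH 1 and NASH 2, and its part in the next counts was not tested. In all kept cells together, 24 of 46 members were higher in NASH and 1 lower, where 18.2% of 12117 genes were higher and 16.7% lower. On library totals 10 were higher and 2 lower, against 9.75% and 30.5% of all genes. Leaving out NASH 1 left 9 calls, leaving out NASH 2 left 11, and a stricter filter on cells left 5. In the 5 other classes with enough cells, few members passed, and not all 46 were tested. The filter on low counts left 42 members in dendritic cell-like and 14 in B cell-like sums. Stmn1 was lower in NASH dendritic cell-like cells, at 471 and 443 CPM in control against 247 and 356, a change of -0.61 ± 0.19 (edgeR adjusted p = 0.0308), where 1.66% of 6584 genes were lower. By edgeR no dendritic member was called on library totals, with no filter on low counts, with the replicate block, with the stricter cell filter, with 3 times the doublets removed or without either NASH library, and Stmn1 lost its call without either control library as well. The part of the changed cluster makeup given above was not tested. The macrophage change had the opposite sign, and the difference between the 2 classes was not tested. Cdc20 was higher in B cell-like cells (17.6, 0, 142 and 77.2 CPM), where 0.349% of 2008 genes were higher, and none was called there with upper-quartile factors or without NASH 1. In T cell-like, plasmacytoid dendritic cell-like and endothelial-like sums only 13, 5 and 6 members were left by that filter and tested. None was called there by edgeR, where 0.746%, 1.96% and 11.5% of all genes passed. An unadjusted p under 0.05 was seen for 4, 0 and 1 of them. The 4 in T cell-like sums were lower in NASH and the 1 in endothelial-like sums was higher. DESeq2 called none in any of the 5 classes. It gave an adjusted p to only 24 dendritic, 2 plasmacytoid dendritic, 3 B cell, 7 T cell and 2 endothelial members. The other members could not be called by it.

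To ask whether the diet difference of a member depended on the cell class, macrophage-like and lymphoid sums (B, T and NK or ILC1 together) were fitted with a diet by class term. The lymphoid mix differed by diet. In control 1, control 2, NASH 1 and NASH 2 there were 42, 55, 30 and 63 B cell-like cells and 11, 30, 49 and 53 T cell-like cells. NK cell or ILC1-like cells numbered 6, 20, 32 and 39. The part of this mix in the result was not tested. Of 45 members, 5 passed, all with a higher NASH-to-control ratio in macrophage-like than in lymphoid sums, where 5.3% of 9988 genes did so (2.08% on library totals). They were Stmn1 (2.11 ± 0.25 on the log2 scale, edgeR adjusted p = 4.61e-14), Cdca8 (1.66 ± 0.48), Ccnb2 (1.39 ± 0.45), Pcna (1.03 ± 0.34) and Hmgb2 (0.61 ± 0.19). In lymphoid sums Stmn1 was at 271 and 216 CPM in control and 277 and 283 in NASH, above every macrophage library. Stmn1 was the 1 member left with DESeq2 or on library totals. DESeq2 gave an adjusted p to only 18 members here, so the others could not be called by it.

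Called macrophages were last compared with the rest of the class in genes outside the 190 cell cycle genes kept out of clustering. Those 190 include all that the call used. The lists of G1 and E2F regulators and of CDK inhibitors and arrest genes stayed among the genes counted. Of 27 and 17 tested in these 2 lists, 10 and 8 were higher in called cells and 2 and 3 lower. Foxm1 (5.38 on the log2 scale), Cdc25b (4.12) and Cdkn2d (3.35) were among the higher ones. Called and uncalled cells were summed in each library and fitted with library as a block. By the same edgeR test, 1938 of 9426 such genes differed, 771 higher and 1167 lower in called cells. Among all 9613 genes, those of the 190 that were tested included, 22.0% differed, 9.84% higher and 12.1% lower. On plain library totals the split outside the 190 genes turned to 1442 higher and 507 lower (16.9% and 5.27% of all 9613 genes), and DESeq2 called 1063. Called cells had more UMIs than uncalled ones, with medians of 3395 and 3084 against 3189 and 2856 in control and 11235 and 13114 against 8311 and 7627 in NASH.

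Among the genes that were highest in called cells were Prr11 (46.2, 72.1, 46.6 and 37.7 CPM in called cells of control 1, control 2, NASH 1 and NASH 2, against 0.88, 1.09, 1.79 and 0.47 in uncalled cells, a log2 change of 5.22 ± 0.40), Trib3 (5.01), the DNA glycosylase Neil3 (4.91), the long noncoding RNA Lockd beside Cdkn1b (4.59), and Knstrn and Ska2 of the spindle and kinetochore. Pkmyt1, a kinase that holds Cdk1 inactive, was higher by 3.58. Markers of Kupffer cells were lower. Vsig4, a complement receptor, was at 1376, 1537, 924 and 647 CPM in called cells and 2978, 2959, 1641 and 1599 in uncalled cells, lower in 4 of 4 libraries (-1.28 ± 0.08). Clec4f was lower in 4 of 4 libraries as well, with 2475, 1976, 1174 and 1467 CPM against 4630, 4172, 1920 and 2615 (-1.11 ± 0.07). Timd4 (-0.74) and Cd5l (-0.59) were lower in 4 of 4, and Marco (-0.51) in 3 of 4. On library totals Vsig4, Clec4f, Timd4 and Cd5l kept their call and Marco lost it. Of the genes of recruited or lipid-associated macrophages, Trem2 was lower by 0.30 in the fit but in 2 of 4 libraries in CPM, a call that 10 of the alternatives lost, and Gpnmb (-0.13), Cx3cr1 (0.06), Ccr2 (0.10) and Ly6c2 (-0.28) did not pass. Apoc1, an apolipoprotein, fell from 5507, 4291, 4392 and 4684 CPM to 2141, 1699, 1892 and 1563 (-1.61 ± 0.07), and Mmp12, Il18bp and Wfdc17 were lower by 1.5, 1.52 and 1.47. The largest falls were of less abundant genes: the potassium channel genes Kcna2 (-1.89) and Kcnj16 (-1.69), and Ctsf (-1.71), which encodes cathepsin F. Lilr4b, a leukocyte receptor gene, was lower in 4 of 4 libraries as well (35.5 CPM in called and 95.2 in uncalled cells on average).

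**Figure D5:**
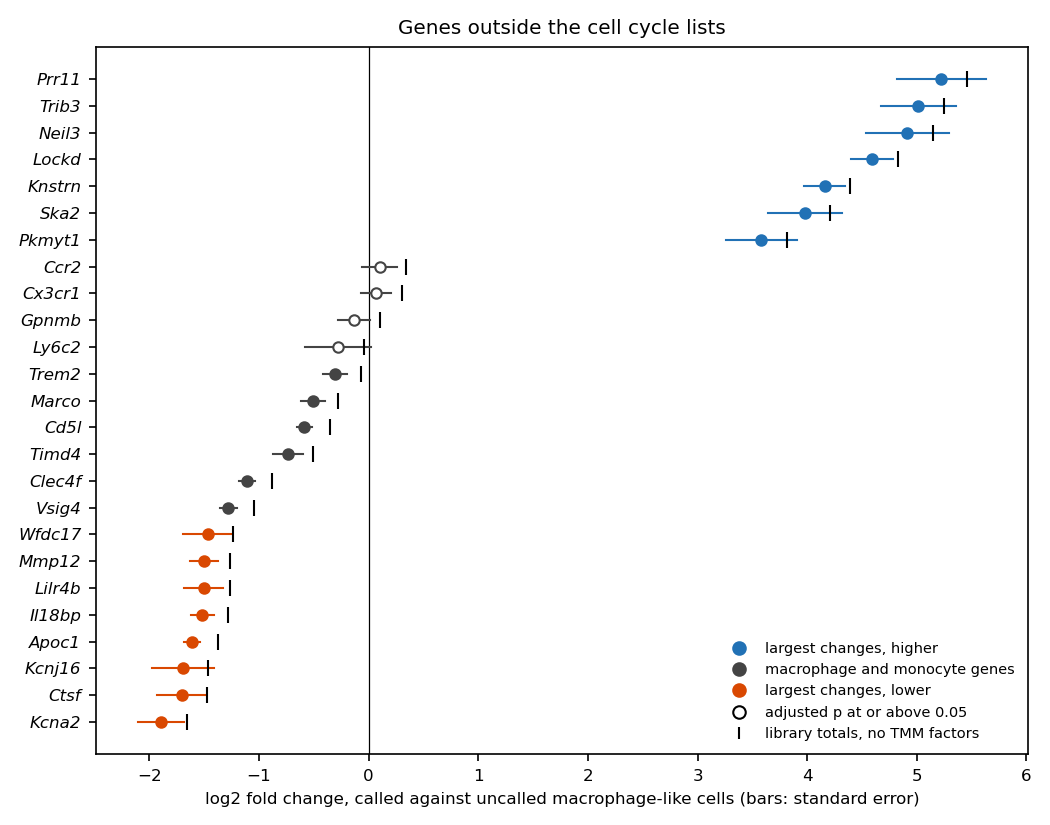
Log2 fold change, called against uncalled macrophage-like cells, with its SE, for named genes outside the 190 cell cycle genes kept out of clustering (edgeR, 4 libraries, library as a block). Prr11 lies at 5.22, and the Kupffer genes Vsig4 and Clec4f lie at -1.28 and -1.11, while Gpnmb, Cx3cr1, Ccr2 and Ly6c2 lie between -0.28 and 0.10.

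Cell cycle genes that the call did not use were mostly higher in called cells: 69 of 71 other mitosis genes and 39 of 44 other replication genes passed, and none was lower. Of all 9613 genes, 9.84% were higher and 12.1% lower (16.9% and 5.27% on library totals). Of 17 CDK inhibitors and arrest genes, 8 were higher and 3 lower. Cdkn2c (3.01) and Cdkn2d (3.35) led the higher ones, and Cdkn1a, which encodes p21, was higher by 1.27. None of 13 macrophage growth signal genes was higher and 6 were lower, 2 on library totals, with Csf1r at 980 CPM in called and 1434 in uncalled cells on average (-0.72 ± 0.08). The 18 dendritic markers summed to 390 to 480 CPM in called macrophages and 405 to 439 in uncalled ones, the 12 monocyte markers to 483 to 975 and 506 to 689, and the 16 macrophage markers to 21971 to 26229 and 29406 to 38048. The 11 hepatocyte markers summed to 308 to 770 CPM in called cells and 486 to 1353 in uncalled ones, lower in each library, and their part in the result was not tested.

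By position in GENCODE vM21 on the mm10 build, the 46 genes lie on 16 chromosomes. Stmn1 lies at chr4:134468320-134473843 on the plus strand, Tyms at chr5:30058202-30073617 on the minus strand and Kif23 at chr9:61915905-61946774 on the minus strand. Of the members, 7 are overlapped by another gene on the same strand and 16 by one on the other strand. No source used here says whether reads were counted by strand, so UMIs of such neighbours may not be told apart.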

How the data were processed

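The deposited values are raw UMI counts per gene and cell in 4 matrices. The notes on processing by the submitters name Cell Ranger, Seurat and mm10. Cells needed 200 genes or more and a mitochondrial share of 10% or less, and 79 putative doublets were removed by Scrublet score. Scanpy 1.11.5 drew 25 clusters (2000 variable genes, Leiden resolution 1.0), named by marker lists, and 5 stayed unnamed. A cluster with C1qa, C1qb and C1qc each in 90% of its cells was macrophage-like unless 2 of its top 10 genes marked other classes. That last clause was changed after clusters and called shares had been seen, and it left 16 control 1 cells with 0 calls unnamed.

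Sums were fitted with edgeR 4.0.16 (TMM, filterByExpr, robust quasi-likelihood, Benjamini-Hochberg threshold 0.05), with DESeq2 1.42.0 as an alternative. SE is the log2 fold change over the root of F. In counts simulated for 10385 macrophage genes, 51.6% of 2-fold and 97.0% of 4-fold changes were recovered. The simulation gave every gene the same set spread, not estimated from these libraries, and left the lowest genes unchanged. These shares therefore do not measure the power of the tests on the members. The members and lists were chosen with earlier results of these data known. Other named genes were the 4 smallest p-values of each list (a selection of these is printed) and, for called cells, the 8 largest changes each way at 50 CPM or more plus 10 macrophage genes. Of the genes this rule chose, 1 is not reported here. The dendritic against macrophage fit, the 5 marker splits, plain library totals, crossed pairs, motifs and the run without a low-UMI cluster were added after the data had been seen.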

Additional observations from a re-analysis of the deposited data

Results flagged for a closer look

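For 5 members the NASH-to-control ratio was higher in macrophage-like than in lymphoid sums by the diet by class term in edgeR's quasi-likelihood test. The log2 differences were 2.11 for Stmn1, 1.66 for Cdca8, 1.39 for Ccnb2, 1.03 for Pcna and 0.61 for Hmgb2. Pcna stood at 59.7, 63.9, 77.5 and 66.0 CPM in macrophage sums and 91.8, 72.1, 73.0 and 51.9 in lymphoid sums of control 1, control 2, NASH 1 and NASH 2. Hmgb2 was nearly level in macrophage sums (257, 236, 248 and 244 CPM). Stmn1 alone passed with DESeq2, which gave an adjusted p to only 18 members, and on plain library totals. The mix of B, T and NK or ILC1-like cells in the lymphoid sums differed by diet, and its part was not tested.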

How the results depend on the processing

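There were 2 libraries a diet, their depth differed by diet, and called cells were few. The labels do not say whether same-numbered libraries belong together. Their deviations from the diet means correlated at -0.03 in macrophage sums and -0.14 in all kept cells. With 2 libraries a diet the crossed correlation is the same value with the sign turned, so this cannot decide whether the numbers pair. The replicate block gave 25, 21 and 3 calls in macrophages, all kept cells and other classes against 28, 25 and 2. With crossed pairs 26 and 27 members were called.

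On library totals 18 members were called in macrophages, 12 in all kept cells and 1 in the interaction. The stricter cell filter gave 16 in macrophages and 5 in all kept cells. DESeq2 gave 19 in macrophages, 16 in all kept cells, 0 in other classes and 1 in the interaction. It gave 19 between dendritic and macrophage sums and 1063 genes in called cells. Many members had no adjusted p from DESeq2 in the other classes and the interaction, and could not be called there. Other classes had 1 call with upper-quartile factors, 1 with no filter on low counts, 0 with 3 times the doublets removed and 1 with cycle genes kept in clustering. The interaction had 2 with no filter, 9 with cycle genes kept and 13 at Leiden resolution 0.5. Leaving out 1 library gave 19 to 24 in macrophages, 9 to 27 in all kept cells, 0 to 10 in other classes, 1 to 5 in the interaction, 13 to 31 between classes and 1223 to 1506 genes in called cells. Called counts without NASH 2 were the lowest in the last 2.

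The diet difference in the called share was 1.60 points with cycle genes kept, 1.76 at 2 genes, -0.13 at 4 genes, 0.077 at 500 UMIs, 1.89 at 2000 and 15.5 unthinned, and 0.24 to 1.40 with 1 library left out. Without the low-UMI control cluster it was 1.19. The fit between dendritic and macrophage sums could not be made with cycle genes kept.

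Directions turned for values that had not passed, and for Hmgb2 and Pcna. On library totals Hmgb2 was -0.0055, Mki67 -0.21 and Gpnmb (called against uncalled) 0.11. Mki67 was -0.038 without control 1 and 0.33 without control 2, Top2a 0.19 with the stricter filter and the Pcna interaction -0.13 with cycle genes kept. Gpnmb was 0.12 without NASH 2 and -0.47 without NASH 1, 0.0020 at 4 genes, 0.42 at 500 UMIs and 0.092 unthinned. Cx3cr1 was -0.48 with DESeq2, -0.12 without NASH 1, -0.0095 at 2000 UMIs, -0.075 unthinned and -0.081 with another seed. Ccr2 was -0.0021 with DESeq2 and -0.29 unthinned. Ly6c2 was 0.14 without NASH 1 and -0.51 without control 2, 0.15 with no doublets removed, 1.10 with cycle genes kept and 0.15 at Leiden resolution 2.0. The cause of these changes was not tested.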
